A study of Mus musculus with 8 samples.

Results

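Mgp Angptl1 Apod fibroblasts are the FBs of mouse dorsal skin in which genes of one set of markers, among them Mgp, Angptl1, Apod and Gpx3, were detected together. A cell counted as a member when it had 500 to 4000 genes, at most 20000 unique molecular identifiers (UMIs, 1 per captured RNA molecule) and at most 10% mitochondrial UMIs, when Col1a1, Col1a2 and Col3a1 together made up at least 1% of its UMIs, and when it had no Ptprc UMI and fewer than 3 Rgs5 UMIs. It also had to hold at least 4 of the 8 markers Angptl1, Mgp, Hmcn2, Fbln7, Apod, Gpx3, Igf1 and Mmp3, and more of them than of a list led by Pi16 and Dpp4 and than of a list led by Cxcl12, Tnmd and Lepr. The 400 members were thus chosen by their own UMI counts of these genes, and make up 19.97% of the 2003 FBs, among 11118 filtered cells and 26231 deposited barcodes. The same steps with the other lists gave 881 Pi16 Dpp4 FBs and 435 Cxcl12 Tnmd Lepr FBs, and 287 FBs had no leading list.

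The series holds 8 droplet-based 3′ single-cell RNA-seq libraries from the dorsal skin of female BALB/c mice aged 14 to 16 weeks. In 4 of them the skin had been injected with PBMCsec, the secretome of irradiated human peripheral blood mononuclear cells, and in 4 with vehicle. All biopsies came from scars that had formed after full-thickness excision, which both groups share, and the design asks how the injected secretome changes the scar. The labels give neither the time after treatment nor the control solution of a library, nor whether each library is a separate mouse. The study's injection experiment sampled part of each group right after the injections and the rest later, with NaCl and medium as controls. Libraries of the same group may thus differ in time and control solution, and p-values measure the spread between libraries. Per library, 14753926 to 37880651 UMIs were deposited, and 45, 55, 66 and 94 members came from PBMCsec libraries 2, 4, 1 and 3, and 8, 4, 61 and 67 from vehicle libraries 1 to 4.

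Dermal FBs build and turn over the collagen and elastic fibre network of skin, and they differ with depth, with the follicle and with the fascia below. Several of the markers are secreted. Mgp encodes matrix Gla protein, a vitamin K-dependent inhibitor of calcification, Angptl1 an angiopoietin-like secreted protein, and Apod apolipoprotein D, a lipocalin that carries small lipids. Igf1 is a growth factor, Mmp3 the metalloproteinase stromelysin-1 and Gpx3 the secreted glutathione peroxidase, while Fbln7 and Hmcn2, a fibulin and a hemicentin, belong to the extracellular matrix.

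The members carried the RNA of FBs. Dcn, the proteoglycan decorin, was detected in all of them (100%), Lum in 99.5% and Pdgfra, the receptor for platelet-derived growth factor that marks FBs, in 93.0%. Markers of T cells, endothelial cells and adipocytes were at or near 0, and those of keratinocytes were not. The 6 T cell genes summed to a median of 1.98 CPM (UMIs of a gene, summed over the cells of a library and scaled to a common total) over the libraries, with a range of 0 to 5.62, Cd3e as the most abundant and Cd3d and Trbc2 at 0. The 6 endothelial genes summed to 28.3 CPM, led by Kdr, with Cdh5, Emcn and Cldn5 at 0, and the 6 adipocyte genes to 2.41 CPM, led by Pparg, with Adipoq, Plin1, Cidec and Lep at 0. The 7 macrophage and dendritic cell genes summed to 22.9 CPM (range 0 to 53.6), led by H2-Ab1. The 8 keratinocyte genes summed to a median of 123 CPM, led by Krt10, and reached 474 CPM in PBMCsec library 4 and 453 in vehicle library 3. As a measure of free RNA, 3.42% of 1874 keratinocytes (median 9513.5 UMIs) held an Mgp UMI and 0.74% of 1209 T cells (median 3481), against 62.0% of the members (median 9531.5).

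Some libraries stood apart among the members. Vehicle libraries 1 and 2 held 8 and 4 members and 87541 and 47374 UMIs of members, so that 3 UMIs, taken as the most that a gene listed at 0 could hide, are worth 34.3 and 63.3 CPM there, against 3.56 to 7.02 CPM in the other libraries. PBMCsec library 2 differed in its genes. Penk, the precursor of enkephalins, was found in 75.6% of its members and in 0 to 34.8% of those of every other library. Its members had 620 CPM of Penk, against 69.1 and 44.5 in PBMCsec libraries 1 and 3, 14.99 in PBMCsec library 4, 21.7 and 9.0 in vehicle libraries 3 and 4, and 0 in vehicle libraries 1 and 2. Hsd11b1, which activates glucocorticoids, had 670 CPM in PBMCsec library 2 and 0 to 103 elsewhere. None of the members shared a barcode with a member of another library, and 3 shared one with a filtered cell of another library.

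RefSeq promoters of build GRCm38.p6, running from 250 bases before to 50 bases after each gene's start, were matched for 7 of the 8 markers. The letters TGACTCA or, on the other strand, TGAGTCA, bound by AP-1 factors such as Fos and Jun, occurred in 2 of the 7, against 5.20% of 32851 promoters. Those of Hmcn2 (chr2:31314082-31314381, plus strand) and Mmp3 (chr9:7445572-7445871, plus strand) are shown because they hold that match, with matches in capitals.
Hmcn2 promoter: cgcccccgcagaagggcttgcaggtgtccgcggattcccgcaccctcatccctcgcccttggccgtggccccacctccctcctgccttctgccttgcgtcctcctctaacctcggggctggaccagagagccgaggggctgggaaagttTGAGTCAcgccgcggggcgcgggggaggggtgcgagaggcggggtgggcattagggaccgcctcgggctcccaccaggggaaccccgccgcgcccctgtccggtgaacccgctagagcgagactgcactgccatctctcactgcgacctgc
Mmp3 promoter: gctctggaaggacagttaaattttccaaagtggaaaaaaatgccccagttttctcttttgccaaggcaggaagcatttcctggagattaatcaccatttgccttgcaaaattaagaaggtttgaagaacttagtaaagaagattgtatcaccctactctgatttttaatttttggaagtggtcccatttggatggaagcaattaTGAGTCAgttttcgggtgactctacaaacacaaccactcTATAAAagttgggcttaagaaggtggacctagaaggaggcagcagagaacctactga
Counted from the start that RefSeq gives, the match began 101 bases before it in Hmcn2 and 46 bases before it in Mmp3. The start of Hmcn2 in GENCODE, used for gene positions here, lies further downstream, beyond the end of this window. The windows of Fbln7, Igf1, Gpx3 and Angptl1 begin inside the gene, downstream of its GENCODE start. The second run of capitals in Mmp3 is the letters TATAAA, 7 bases before the start. On either strand these letters were in 1 of the 7 promoters and in 13.6% of all, and CCAAT or ATTGG in 3 of the 7, those of Fbln7, Igf1 and Gpx3, and in 37.4% of all. A match is a description of the letters and does not show that a factor binds.

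The 8 markers chose the members, so their levels describe the group and test nothing. The sharpest contrast was in 4 of them. Mgp (ENSMUSG00000030218, chromosome 6 of GRCm38, 136872435 to 136875823, minus strand) had 947 ± 508 CPM in members (SD, n = 8 libraries) and 53.8 ± 63.5 in the other FBs. By library it had 1009, 753, 852 and 577 CPM in members of PBMCsec libraries 1 to 4 and 1781, 192, 876 and 1539 CPM in those of vehicle libraries 1 to 4. The PBMCsec values all lay within the range of the vehicle values, and the lowest value came from the 4 cells of vehicle library 2. Of the Pi16 Dpp4 FBs 1.70% held an Mgp UMI, of the Cxcl12 Tnmd Lepr FBs 11.7%, and of the members 62.0%.

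Angptl1 (ENSMUSG00000033544, chromosome 1, 156838562 to 156861078, plus strand) had 829 ± 679 CPM in members and 64.9 ± 27.5 in other FBs. Fbln7 (ENSMUSG00000027386, chromosome 2, 128862981 to 128897034, plus strand) had 476 ± 384 and 20.5 ± 15.2 CPM. For Hmcn2 (ENSMUSG00000055632, chromosome 2, 31314415 to 31460738, plus strand) the levels were 527 ± 332 and 32.0 ± 12.7 CPM. Angptl1 was detected in 77.2% of the members, Hmcn2 in 74.5% and Fbln7 in 64.8%. Any 2 of these 4 genes were found together in 45.8% to 59.8% of members and in at most 4.24% of the other FBs.

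The remaining markers were common in FBs at large. Apod (chromosome 16, 31296192 to 31314808) was detected in 94.0% of members and 83.7% of Cxcl12 Tnmd Lepr FBs, and Gpx3 (chromosome 11, 54902453 to 54910377) in 96.8% of members and 98.2% of Pi16 Dpp4 FBs. Igf1 (chromosome 10, 87858265 to 87937042) was found in 89.8% of members against 26.2% and 66.7%, and Mmp3 (chromosome 9, 7445822 to 7455975) in 89.0% against 41.9% and 31.5%. In CPM, members had 2.43 times the Apod, 1.90 times the Gpx3, 3.65 times the Igf1 and 3.57 times the Mmp3 of the other FBs (ratios of library means after adding 10 CPM). Gpx3 was the marker that was not higher in every library, with 911 CPM in the members of vehicle library 1, below its other FBs. In that library the other FBs had 1665 CPM, and the plot of the markers shows this as the falling line.

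**Figure D1:**
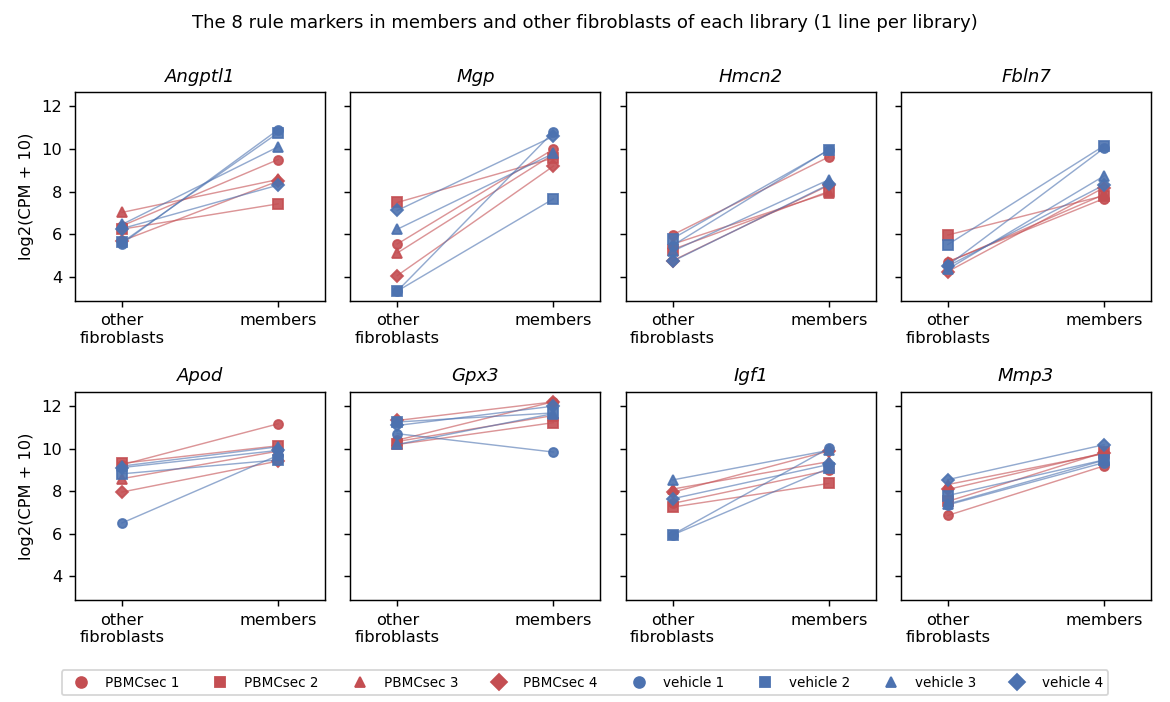
Level of each of the 8 rule markers as log2(CPM + 10), in other fibroblasts (left) and members (right) of the same library, with 1 line per library, red for PBMCsec and blue for vehicle. Lines rise in all 8 libraries for every marker except Gpx3 in vehicle library 1, and rise most for Fbln7, Mgp, Hmcn2 and Angptl1.

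Of the members 98 held all 8 markers, 121 held 7, 86 held 6, 65 held 5 and 30 held 4. Just inside the threshold, the 30 members with 4 markers had a median of 4079.5 UMIs. They were carried by Gpx3 (83.3% of them), Apod (80%), Mmp3 (76.7%) and Igf1 (66.7%), while Angptl1 was found in 20% and Mgp in 16.7%. Just outside, 16 FBs led by the same list held 3 markers (median 2766 UMIs), with Angptl1 in 43.8% and Mgp in 18.8%. At least 3 of the 4 sharp markers Angptl1, Mgp, Hmcn2 and Fbln7 were present in 255 members (63.8%), by library in 54.3% to 75.8% of members after PBMCsec and in 56.7% to 100% after vehicle. Another 9 members held none of the 4.

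Members were not set apart from other FBs by every gene of the competing lists. Pi16, a peptidase inhibitor of adventitial and fascia FBs, was detected in 81.8% of members, Dpp4 in 59.2%, Cxcl12 in 83.2% and Mfap4 in 59.2%. Mrgprg was found in 0.75% of members and 42.8% of Pi16 Dpp4 FBs, Efhd1 in 4.5% and 67.1%, and Smpd3 in 10.2% and 79.7%. Likewise Adamts18 was present in 3.5% of members and 37.9% of Cxcl12 Tnmd Lepr FBs, Lepr in 5.75% and 42.8%, and Tnmd in 10.5% and 60.0%. Of the 846 FBs with at least 4 markers, 208 were led by the Pi16 list, 119 by the Cxcl12 list and 119 by none. Members also gave deeper data, with a median of 9531.5 UMIs against 7572 in Pi16 Dpp4 FBs and 7809 in Cxcl12 Tnmd Lepr FBs. A deeper cell shows more markers of any list, and what part this had in membership was not tested beyond the thinning given with the shares.

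Among 3505 genes with at least 50 CPM, 148 (4.22%) were higher in members than in other FBs in all 8 libraries and 246 (7.02%) were lower in all 8. A difference of at least 2-fold was present for 48 of the higher and 62 of the lower genes. The rule split the same cells, so these counts describe the members and no test was made. The leading gene outside the rule was Igfbp3, a carrier of insulin-like growth factors, with 617 ± 805 CPM in members and 30.7 ± 18.3 in other FBs (15.4-fold). Its level in members ranged from 46.8 CPM in vehicle library 4 to 2494 in vehicle library 2, and 36.0% of members held it, against 9.98% of other FBs. The spread over libraries thus exceeded the mean, and the vehicle value of 2494 CPM comes from 4 cells. Without vehicle library 2 the mean in members was 349 CPM and the ratio 8.88-fold.

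Several of the next genes act in the matrix or at the cell surface. Prg4, which encodes the joint lubricant lubricin, had 108 ± 151 CPM in members and 12.4 ± 22.5 in other FBs, and 56.8 and 4.49 CPM without vehicle library 2. Col8a1, a network-forming short-chain collagen, had 127 ± 69.4 against 22.6 ± 11.5 CPM, and Tgfbi, an adhesion protein of the matrix, 434 ± 217 against 155 ± 72.6. F3 is tissue factor, which starts coagulation. It had 306 ± 176 CPM in members and 66.4 ± 35.0 in other FBs and was found in 64.8% against 21.1% of cells. Gas6, like Mgp a vitamin K-dependent secreted protein, had 818 ± 336 CPM against 292 ± 184. Its values in members were 1118, 219, 885 and 1183 CPM in PBMCsec libraries 1 to 4 and 495.5, 874, 1092 and 678 in vehicle libraries 1 to 4. The value of PBMCsec library 2 was the lowest of the 8. With libraries pooled, Gas6 had 881 CPM in members, 564 in Cxcl12 Tnmd Lepr FBs and 83.1 in Pi16 Dpp4 FBs. In the same order Tgfbi had 398, 279 and 55.2 CPM and Col8a1 113, 65.6 and 7.46. For F3 the values were 371, 52.9 and 61.0 CPM, and for Prg4 51.3, 2.02 and 8.65. The contrast in Gas6, Tgfbi and Col8a1 was thus larger to Pi16 Dpp4 than to Cxcl12 Tnmd Lepr FBs.

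Among the 25 highest ratios were also genes of other functions. Abca8a, a lipid transporter, had 363 ± 173 CPM in members and 119 ± 45.6 in other FBs. Cygb, a globin of FBs, was detected in 92.2% of members and had 863 ± 235 against 307 ± 55.9 CPM. Signalling genes included the Wnt antagonist Sfrp1 (279 ± 270 against 75.1 ± 42.0 CPM), the ligand Wnt16 (81.0 ± 62.1 against 17.7 ± 13.7), the heparin-binding growth factor Mdk (139 ± 66.4 against 38.2 ± 13.7) and Tgfb3 (59.2 ± 63.9 against 18.0 ± 9.46). Pooled over libraries, Tgfb3 had 34.7 CPM in members, 36.1 in Cxcl12 Tnmd Lepr FBs and 13.9 in Pi16 Dpp4 FBs. Fam124a, Tmem176b, Stk17b, Ptprd, Epha3, Gpnmb, Fxyd6, Tmod2, Adm, Auts2, Cp and Ssc5d were others of the 25, at 2.51 to 5.62 times the level of other FBs. Single vehicle libraries set some of these ratios, which fell from 4.01 to 2.65 for Stk17b and from 3.85 to 2.34 for Ptprd without vehicle library 1, and from 2.47 to 1.57 for Tgfb3 without vehicle library 2.

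**Figure D2:**
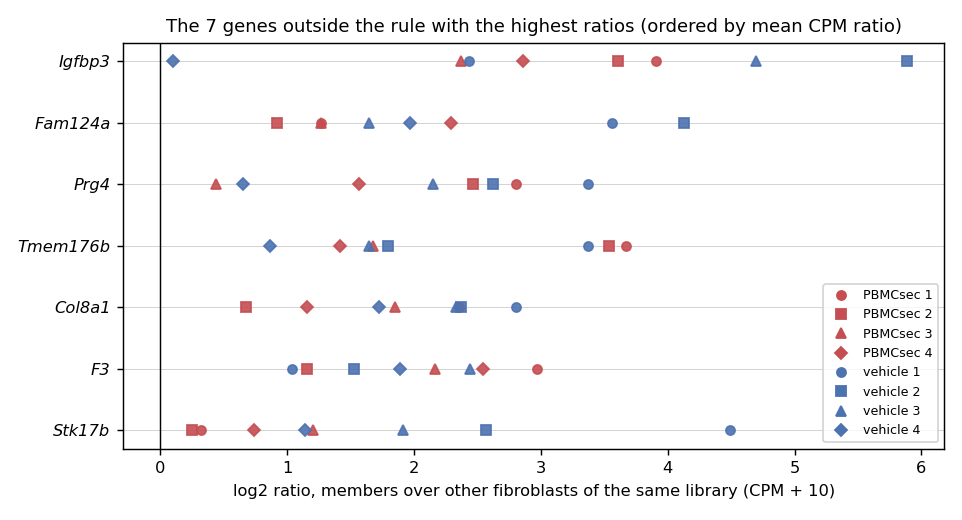
Log2 ratio of the level in members over that in other fibroblasts of the same library (CPM + 10) for the 7 genes outside the rule with the highest ratio of library means, 1 point per library. All points lie above 0 by choice, and for Igfbp3 they run from just above the zero line in vehicle library 4 to the highest point in vehicle library 2.

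The lowest ratios belonged to genes of the neighbouring FBs. Duox2, an oxidase that makes hydrogen peroxide, had 1.28 CPM in members and 143 ± 153 in other FBs (13.6-fold lower), with 119 CPM in pooled Pi16 Dpp4 FBs and 0.58 in Cxcl12 Tnmd Lepr FBs. Daglb, a diacylglycerol lipase, was 6.67-fold lower and Aldh1a3, which makes retinoic acid, 4.88-fold lower, both higher in Pi16 Dpp4 than in Cxcl12 Tnmd Lepr FBs. Igfbp2 (6.09-fold lower) and the axon guidance receptor Robo2 (5.02-fold lower) were higher in Cxcl12 Tnmd Lepr than in Pi16 Dpp4 FBs. Igfbp2 was 13.2-fold lower without PBMCsec library 1 and 3.74-fold lower without vehicle library 2. Sema3c, a secreted semaphorin, was still found in 56.0% of members, at 170 ± 103 CPM against 687 ± 288. Cd200, Nav3, Arl4d and Car8 were 3.87-fold to 5.11-fold lower.

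Genes of shared function were compared as lists. Of 10 small leucine-rich proteoglycans with at least 50 CPM, 3 were higher in all 8 libraries and none lower, with a median log2 ratio of 0.76 against -0.03 over all 3505 genes. These counts and those of the next groups stand beside 4.22% of all genes that were higher and 7.02% that were lower in all 8 libraries. Lum had 3191 CPM in members and 1887 in other FBs, Bgn 1524 and 886, and Ecm2 273 and 165. Of 22 fibulin and elastic fibre genes, 7 were higher in all 8 libraries and 4 lower, but the choice of cells fixed the direction of Hmcn2 and Fbln7. The other higher ones were Fbln2 (1401 against 800 CPM), Lox, which crosslinks collagen and elastin (358 against 184), Ltbp4 (441 against 192), Ltbp3 and Emilin1. Lower were Fbn1, the main fibrillin (1151 against 2316 CPM), Efemp1 (425 against 774), Emilin2 and Fbln5. Eln, elastin itself, was higher in 5 libraries and lower in 3 (1004 ± 967 against 646 ± 161 CPM).

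Of 10 complement genes 5 were higher in all 8 libraries, among them Serping1, C1s1, Colec12 and C2, and Cd55, which protects cells from complement, was lower in all (230 against 803 CPM). Among the 10 genes of the Wnt pathway Sfrp1, Lrp6 and Dkk3 were higher in every library and none lower, and among 12 of the TGF-beta and BMP pathway Id2, Id3 and Tgfb3 were higher and Tgfbr2 and Bmp1 lower. Of 19 collagens 1, Col8a1, was higher in all 8 libraries and none lower, near the 4.22% of all genes. Among 11 genes of the insulin-like growth factor axis Igfbp3 and Igfbp7 were higher in all libraries and Igfbp2 lower, besides Igf1, a marker of the rule whose direction the choice of cells fixed, while the receptor Igf1r had 95.2 CPM in members and 108 in other FBs. Of the tendon and cartilage list Cilp, a matrix protein of the cartilage intermediate layer, and Thbs4, a thrombospondin, had at least 50 CPM, while Acan and Col2a1 were at 0 in members and Scx had 1.62 CPM. Cilp had 1174 ± 688 CPM in members against 358 ± 156 and was higher in 7 libraries. Its level was 1030 CPM in the pooled Cxcl12 Tnmd Lepr FBs and 13.7 in the pooled Pi16 Dpp4 FBs. The 10 hair follicle papilla and sheath genes summed to a median of 41.5 CPM in members and 308 in other FBs. Cycling cells were scarce, with a UMI of Mki67 in 1.25% and of Top2a in 0.5% of members.

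The members were not uniform. With an Mgp UMI (248 cells, median 9843 UMIs) and without one (152 cells, median 8356.5 UMIs) they differed in other matrix genes, which were chosen after their values were seen. Cells with Mgp had 1211 CPM of Cilp against 481 without, 1755 against 970 CPM of Bgn, 366 against 134 CPM of Fbln7 and 943 against 317 CPM of Eln. Bgn was higher with Mgp in 8 libraries and Cilp, Fbln7 and Eln in 7. Fbln7 is, like Mgp, a marker of the rule, so the choice of cells bears on its values. Cells without Mgp had more Efemp1 (704 against 287 CPM), Ltbp1 (135 against 36.4) and Cd34 (1002 against 737), with Efemp1 lower in cells with Mgp in 7 libraries and Cd34 in 8. Over the 400 members the correlation of log-normalised Mgp with Cilp was 0.43 and with Efemp1 -0.42. The cells share libraries and depth, so these values are given as a description with no test. For Igfbp3 the correlation was -0.03, although cells with Mgp had 431 CPM against 305 and held it in 41.1% against 27.6% of cells. For Prg4 it was 0.00, with 60.0 against 32.2 CPM and a higher level with Mgp in 6 libraries.

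The makeup of the members also differed by library. Cilp was found in 37.8% of members of PBMCsec library 2 and in 49.3% to 87.5% elsewhere, Gas6 in 46.7% and in 75% to 100% elsewhere, and Mfap4 in 26.7% and in 44.3% to 71.2% elsewhere. Efemp1, by contrast, was found in 91.1% of the members of that library, Pla1a in 84.4% and Col15a1 in 91.1%. Its Angptl1 level, 162 CPM, was the lowest of the 8 libraries. Col8a1 was found in 4.44% of its members and in 25.5% to 50% of those of the other libraries. The library with the highest member share thus had the lowest Angptl1, Gas6, Cilp and Col8a1 values among its members.

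**Figure D3:**
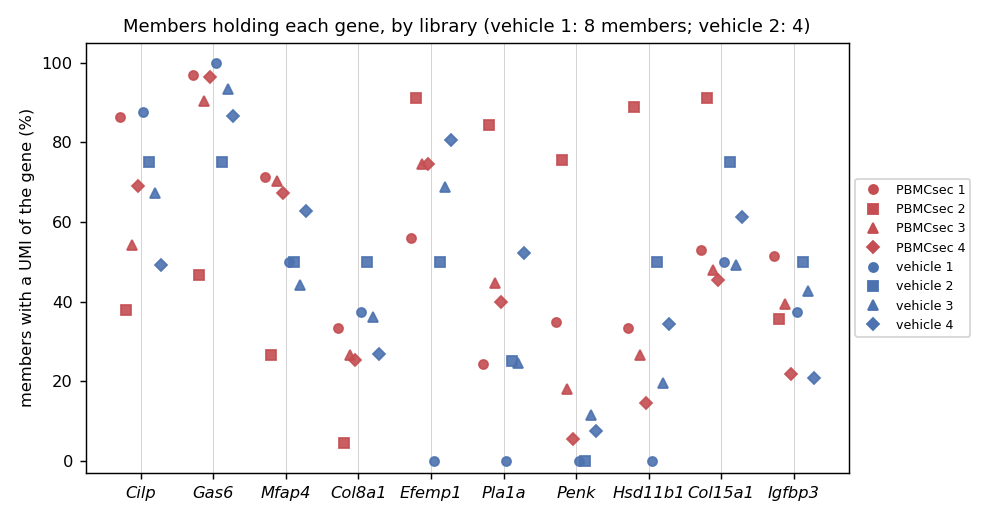
Share of members with at least 1 UMI of 10 genes, in percent, 1 point per library. PBMCsec library 2 (red squares) is lowest for Cilp, Gas6, Mfap4 and Col8a1 and highest for Efemp1, Pla1a, Penk, Hsd11b1 and Col15a1, and the values of vehicle libraries 1 and 2 rest on 8 and 4 cells.

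Members made up a larger share of FBs after PBMCsec than after vehicle, but not beyond the spread between libraries. After PBMCsec the shares were 37.7% (66 of 175), 51.1% (45 of 88), 18.6% (94 of 505) and 18.4% (55 of 299) in libraries 1 to 4. After vehicle they were 14.0% (8 of 57), 10% (4 of 40), 12.6% (61 of 483) and 18.8% (67 of 356). PBMCsec libraries 1 and 2 were above all vehicle libraries, and PBMCsec libraries 3 and 4 lay between vehicle libraries 1 and 4. The means were 31.5% ± 15.9 and 13.9% ± 3.70 (SD, n = 4), a difference of 17.6 percentage points (two-sided exact permutation test, p = 0.0857, adjusted p = 0.229 over 6 shares). The smallest p that 4 against 4 libraries can give is 0.0286. As a share of filtered cells members were 5.44% ± 2.37 and 2.36% ± 1.18 (exact p = 0.0857).

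The difference sat in the libraries numbered 1 and 2. Within them it was 32.4 percentage points (exact p = 0.333, 2 against 2) and within those numbered 3 and 4 it was 2.78 (exact p = 1). Libraries 1 and 2 of either treatment were also the small ones, with 318 to 1080 filtered cells against 1600 to 2903. Without PBMCsec library 2 the difference was 11.0 percentage points (exact p = 0.171). With all cells thinned to 3000 UMIs it was 16.6 (exact p = 0.0571), and when members also had to hold at least 3 of the 4 sharp markers, an alternative added after the data were seen, it was 10.1 (20.5% ± 11.2 against 10.4% ± 1.49, exact p = 0.171). The Pi16 Dpp4 FBs moved the other way, with 36.8% ± 11.6 of FBs after PBMCsec and 54.7% ± 12.8 after vehicle (exact p = 0.114), and the Cxcl12 Tnmd Lepr FBs had 16.8% ± 6.91 and 16.7% ± 13.3 (exact p = 0.971). A share depends on the other FBs in its denominator, and all FBs made up 17.9% ± 1.75 and 16.2% ± 4.55 of filtered cells.

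**Figure D4:**
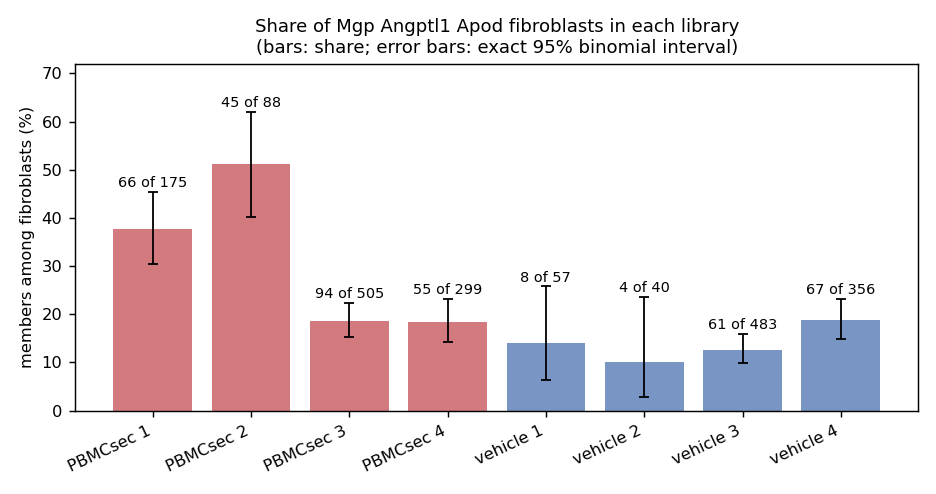
Share of members among the fibroblasts of each library in percent, with members and fibroblasts counted above each bar and exact (Clopper-Pearson) 95% binomial intervals, which cover counting error only. PBMCsec libraries 1 and 2, at 37.7% and 51.1%, are above the other 6, which lie between 10% and 18.8%.

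Within members, no gene passed the test between PBMCsec and vehicle. Of 6310 genes tested on counts summed per library, 0 (0%) had an adjusted p under 0.05 (edgeR quasi-likelihood test, Benjamini-Hochberg adjustment). At an unadjusted p under 0.05, 123 genes (1.95%) were higher and 81 (1.28%) lower. DESeq2 called 2, Ptgs2 and Ptx3, both higher after PBMCsec. Of all genes tested 95 (1.51%) had every PBMCsec library above every vehicle library and 67 (1.06%) the reverse. The count of calls depended on single libraries, as it was 3 without PBMCsec library 2 (Ptgs2, Ptx3 and Gadd45b) and 1 without PBMCsec library 4 (Cxcl2), all higher.

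The lowest p belonged to Ptgs2, the inducible cyclooxygenase that makes prostaglandins. It had 92.7, 30.9, 59.0 and 43.1 CPM in PBMCsec libraries 1 to 4 and 0, 0, 10.8 and 3.60 in vehicle libraries 1 to 4, from 63, 13, 49, 23, 0, 0, 5 and 2 UMIs. The groups did not overlap, but the zeros of vehicle libraries 1 and 2 allow up to 34.3 and 63.3 CPM. The log2 fold change was 3.23 (SE 0.56, edgeR adjusted p = 0.248). Cxcl14, a chemokine of resting skin, had 593, 326, 104.7 and 238 CPM after PBMCsec and 0, 0, 41.2 and 88.1 after vehicle, again with no overlap (log2 fold change 2.70, SE 0.60, edgeR adjusted p = 0.922).

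Ptx3, a soluble pattern recognition molecule, had 276, 19.0, 648 and 172 CPM after PBMCsec and 13.4, 42.6, 30.3 and 25.2 after vehicle. PBMCsec library 2 thus lay within the vehicle values. The stress-response gene Gadd45b had 251, 30.9, 231 and 78.7 CPM after PBMCsec and 26.8, 85.3, 15.2 and 8.99 after vehicle, with overlap. Hspa1b, an inducible heat shock protein of the Hsp70 family, had 2237, 611, 810 and 319 CPM against 348, 234, 154 and 43.2, so that PBMCsec library 4 was just below vehicle library 1. On the TMM scaling of the test it was just above, at 362 against 345 CPM. Their log2 fold changes were 3.40, 3.09 and 2.61 (each edgeR adjusted p = 0.922). With same-numbered libraries taken as pairs (the replicate block), edgeR called Hspa1b (adjusted p = 0.00715), though the library numbers did not pair the samples.

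Among lower values, Fbln7 and Angptl1 are markers of the rule, so their values in members are a description with no test. Fbln7 had 194, 214, 223 and 281 CPM in members of PBMCsec libraries 1 to 4 and 1045, 1130, 416 and 307 CPM in those of vehicle libraries 1 to 4. Every PBMCsec value was below every vehicle value, and the highest came from the libraries with few members (log2 fold change -1.49). Without vehicle libraries 1 and 2 the log2 fold change was -0.62. Angptl1 had a log2 fold change of -1.52, with 1915 and 1727 CPM in vehicle libraries 1 and 2 and 306 to 1090 in vehicle libraries 3 and 4. Thbs4 had 1942 and 1642 CPM in vehicle libraries 1 and 2, 303 and 185 in vehicle libraries 3 and 4, and 2.38 to 184 after PBMCsec, so that the groups only just did not overlap. On the TMM scaling of the test they did, with 209 CPM in PBMCsec library 4 and 199 in vehicle library 4. The other low p belonged to the linker histone Hist1h1c (16.6 to 22.5 against 41.4 to 53.6 CPM), the kinase Stk17b (11.8 to 38.5 against 36.0 to 214) and the peptidase Npepl1 (33.7 to 45.6 against 53.6 to 86.3). Vehicle libraries 1 and 2, with 8 and 4 members, had the highest levels of Angptl1, Hmcn2 and Fbln7 of all libraries. Without them the log2 fold change was -0.75 for Angptl1, -1.12 for Thbs4 (-3.04 with all libraries) and -1.21 for Stk17b (-1.82).

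**Figure D5:**
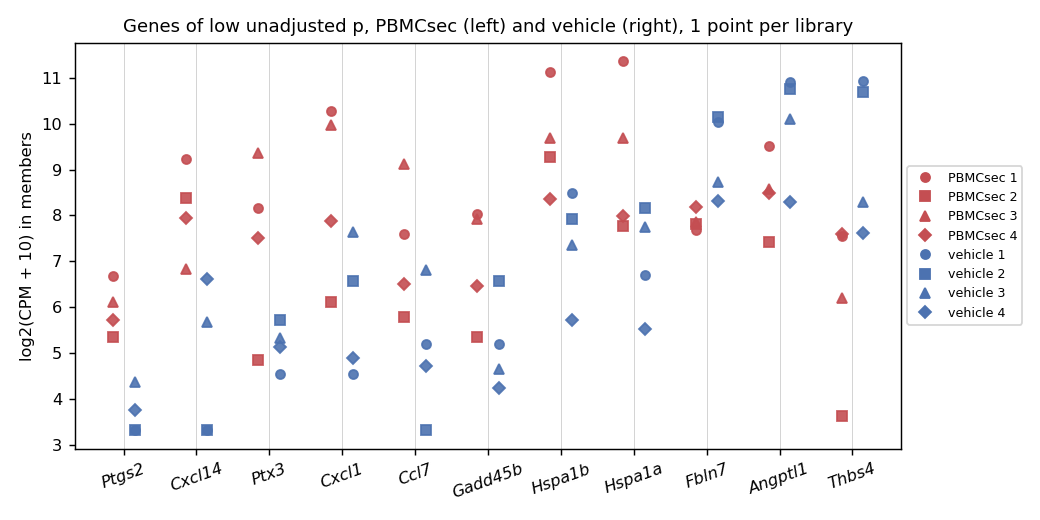
Level in members as log2(CPM + 10) of Ptgs2, Cxcl14, Ptx3, Cxcl1, Ccl7, Gadd45b, Hspa1b, Hspa1a, Fbln7, Angptl1 and Thbs4, PBMCsec libraries in red on the left and vehicle libraries in blue on the right of each gene. Ptgs2, Cxcl14, Fbln7 and, by a narrow gap, Thbs4 do not overlap between the groups, and the other 7 of these 11 genes do. On the TMM scaling of the test Thbs4 does and Hspa1b does not.

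Among 13 tested genes of the chemokine and cytokine list, 6 were higher and 1 was lower at an unadjusted p under 0.05 (1.95% and 1.28% of all genes), with a median log2 fold change of 0.66 against 0.02 over all genes. Under the alternatives the median ran from 0.30 to 2.77. The 6 were Cxcl14, Ptx3, Cxcl1, Ccl7, Csf1 and Kitl, and Cxcl13 was lower. Cxcl1, which attracts neutrophils, had 1234, 59.4, 993 and 225 CPM after PBMCsec and 13.4, 85.3, 188 and 19.8 after vehicle. The high values belonged to PBMCsec libraries 1 and 3, and it was detected in 23.5% of members. Cxcl12, found in most members, had a log2 fold change of 0.21 (SE 0.32). None of the list passed the adjusted threshold in the main edgeR fit of all 8 libraries. With the replicate block, edgeR called Ccl7 (adjusted p = 0.0085) and the chemokine Cxcl2 (adjusted p = 0.000996). DESeq2 called Ptx3 (adjusted p = 0.0281), as did edgeR without PBMCsec library 2 (adjusted p = 0.00325). A short list of markers of inflammatory FBs shares Cxcl1 and Ptx3 with it. Of its 3 tested genes these 2 were higher at an unadjusted p under 0.05, and Ccl2 had a log2 fold change of 0.66 (SE 0.84). The median of the 3 was 2.94, with 1.64 to 4.04 under the alternatives, and its genes summed to 1977, 152, 2171 and 485 CPM after PBMCsec and 26.8, 149, 672 and 88.1 after vehicle.

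Of 24 immediate early and dissociation stress genes, 5 were higher at an unadjusted p under 0.05, against 1.95% of all genes, and none lower (median log2 fold change 0.09, and -0.29 to 0.73 under the alternatives). All 5, namely Hspa1a, Hspa1b, Hsp90aa1, Hspa8 and Hspb1, encode heat shock proteins, while Fos, Jun, Egr1 and Dusp1 had values of -0.32, 0.45, 0.06 and -0.18. Their summed level was 19757 CPM in PBMCsec library 1 and 19619 in vehicle library 1, against 6937 to 14408 in the other 6 libraries. Heat shock genes also respond to tissue dissociation, whose part here was not tested.

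In the lists of matrix genes the calls stand beside 1.95% higher and 1.28% lower among all genes, and the medians beside 0.02. Of 21 collagens, Col4a1 and Col4a2, the basement membrane chains, were higher and Col12a1 lower at an unadjusted p under 0.05, with a median of 0.00. No collagen was higher at that p without PBMCsec library 2, nor without vehicle libraries 1 and 2, where Col4a1 had 67.0 and 21.3 CPM in members against 364 and 270 in vehicle libraries 3 and 4. Of 23 fibulin and elastic fibre genes no gene outside the rule had a p under 0.05. Their median, with Fbln7 and Hmcn2 of the rule included, was -0.24, and -0.60 to 0.05 under the alternatives, above 0 with the 5% mitochondrial limit. Of 10 small leucine-rich proteoglycans Prelp was lower (median 0.01), and of 11 complement genes none had a p under 0.05 (median 0.09). Of 24 tested genes that the study names in mouse skin, Adamts1 was higher (median 0.12). The list pools genes that the study names from topically treated and injected skin, so it was drawn in part from these samples and is not independent evidence. Eln had a log2 fold change of -0.67 (SE 0.68) and Txnip of -0.39 (SE 0.28). In the remaining lists of matrix, signalling and metabolic genes 0 to 2 genes had a p under 0.05 in either direction, Apoe and Sfrp1 among them, both higher. Sfrp1 was the 1 higher of 10 tested Wnt pathway genes, and the other 9 were lower (median -0.21), 1 of them at that p. Of 19 metalloproteinases and inhibitors 2 were higher and 1 lower at that p (median -0.08).

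The treatment difference in members was set against that in the other FBs of the same libraries in one model with a term for each library. Of 8491 genes 0 (0%) passed an adjusted p under 0.05 (edgeR), with 158 (1.86%) more positive and 92 (1.08%) more negative in members at an unadjusted p under 0.05. DESeq2 called none, with 62 more positive and 85 more negative at an unadjusted p under 0.05. One gene was called without PBMCsec library 2 (Gadd45b) and one without PBMCsec library 4 (Penk). For Hspa1b the value was 1.49, for Cxcl14 2.01 and for Gadd45b 2.37 on the log2 scale (edgeR unadjusted p = 0.00114, 0.00653 and 0.00189). For Ptgs2 and Ptx3, which DESeq2 called in members, it was 1.12 and 1.71 (edgeR unadjusted p = 0.171 and 0.151). The counts include the 8 markers, of which 0 were more positive and 2 more negative at an unadjusted p under 0.05. Their values are not read here, since they sorted the cells into members and other FBs.

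In all FBs together, where no marker chose the cells beyond the FB gate, 0 of 10107 genes (0%) passed an adjusted p under 0.05 (edgeR), and 304 (3.01%) had an unadjusted p under 0.05. DESeq2 also called 0, with 258 at an unadjusted p under 0.05. None of the 8 markers was among them. Their log2 fold changes ran from -0.47 for Fbln7 (SE 0.37) to 0.64 for Apod (SE 0.43). Over the total of all genes, Apod had 1264, 870, 484 and 326 CPM in PBMCsec libraries 1 to 4 and 162, 463, 640 and 638 in vehicle libraries 1 to 4. PBMCsec libraries 1 and 2, which had the highest member shares, were above all vehicle libraries, and PBMCsec library 4 was below 3 of them. In bulk sums of this kind more members and more RNA of a gene per cell cannot be told apart.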

How the data were processed

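Droplet-based 3′ single-cell RNA-seq of dorsal skin (kit v3.1) was analysed in 4 PBMCsec and 4 vehicle libraries, grouped by the labels alone. The deposited values are unnormalized UMI counts for each gene in each barcode, which the authors made with Cell Ranger on mm10. The submitters' notes name version 3.0.2. Cell filters were those of the rule, and the study's mitochondrial limit of 5% was an alternative. No doublet caller was run, and leaving out the 5% of members with most UMIs was an alternative.

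Counts were summed per library over members, over other FBs and over all FBs, without Gm42418, Gm17056 and Gm26917, as in the study. CPM by library are these sums scaled to a common total and nothing else, and the threshold values, the values with and without Mgp, Apod in all FBs and the floor of 3 UMIs use all genes. Sums were tested with edgeR 4.0.16 in R 4.3.3 (quasi-likelihood test after TMM scaling and filterByExpr, p-values adjusted by Benjamini-Hochberg). DESeq2 1.42.0 was an alternative. Shares were compared by exact permutation over 70 labellings. Intervals are exact (Clopper-Pearson, 95%) and cover counting error only. The test script was checked on simulated counts. Gene positions come from GENCODE M21 (GRCm38).

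Members, gene lists and named genes were chosen with earlier results of these data known. Named genes were the 8 markers and the genes of the other lists, the 25 highest and 10 lowest ratios (at least 50 CPM, at least 30 member cells, same direction in all 8 libraries), the 5 lowest p in each direction, and in each list the most abundant and most different genes. Other genes named in a list, and those compared with and without Mgp, were chosen after their values were seen. Of the 31053 genes 30934 were found in GENCODE. The topical and human experiments of the study were not analysed here. A few genes that this rule names are not reported here. Ratios to other FBs without 1 library, and values without vehicle libraries 1 and 2, were added after the data were seen.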

Additional observations from a re-analysis of the deposited data

Results flagged for a closer look

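Of 38 groups of 4 libraries, 3 had a library far from the rest, measured as its gap to the nearest library over the group's range (Dixon's criterion at the 95% level). Chance flags about 1 in 20 such groups. PBMCsec library 1 had 781 CPM of Hmcn2 in members, against 237 to 304 in the other PBMCsec libraries. For Mmp3, PBMCsec library 1 was the low one with 577 CPM, against 863 to 903, and vehicle library 4 the high one with 1160 CPM, against 643 to 704. In the main edgeR fit, no treatment effect differed between members and other FBs at an adjusted p under 0.05.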

How the results depend on the processing

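The differences in member share kept their sign under all alternatives run. Their exact p stayed above 0.05, but only the alternatives with 4 against 4 libraries and no block could go below it. Leaving out 1 library in turn gave 11.0 to 22.0 percentage points among FBs and 2.06 to 3.75 among filtered cells. With the replicate block the exact p was 0.25 for both shares, where 4 pairs can reach 0.125. In members the count of called genes, 0 in the report, was 2 with DESeq2, 95 with no filter on low counts, 3 in the libraries numbered 1 and 2 alone, 3 in those numbered 3 and 4 alone, 7 with the replicate block and 0 to 3 on leaving out 1 library. For members against other FBs it was 37 with no filter, 2 with the replicate block, 6 in the libraries numbered 3 and 4 alone and 0 to 1 on leaving out 1 library. In all FBs it was 12 in the libraries numbered 1 and 2 alone and 0 on leaving out any library. The cause of these shifts was not tested. The other alternatives run (5% mitochondrial limit, at least 5 markers, no top 5% by UMIs, 6 libraries with at least 10 members, at least 3 of 4 sharp markers, a term for the libraries numbered 1 and 2 against those numbered 3 and 4) called 0, the last 3 having been added after the data were seen. The library numbers did not pair the samples: same-numbered libraries correlated at 0.12, -0.013, 0.063 and 0.105 in members and at 0.18, 0.028, 0.22 and 0.24 in all FBs, and not every library correlated best with its own number. In all FBs the correlations across treatments were above 0 within each of the sets numbered 1 and 2 and numbered 3 and 4 and below 0 between the sets.

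The 10 genes of lowest p in members kept their sign in every alternative that gave a value. Among them Fbln7 is a marker of the rule, so its values remain a description. In all FBs, 8 values of the markers changed sign, none of them called. In the libraries numbered 3 and 4 alone Mgp had a log2 fold change of -0.995, Hmcn2 -0.036 and Apod -0.61. In the 6 libraries with at least 10 members Angptl1 had 0.15, Mgp -0.022, Fbln7 0.23 and Igf1 -0.15. For Hmcn2, leaving out 1 library gave values of -0.33 to 0.67, the lowest with PBMCsec library 1 left out.

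Few cells limit the vehicle arm of members, as 2 of its 4 libraries held 8 and 4 cells.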

Other observations

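Angpt1, a ligand of the receptor Tek, had 41.8 CPM in members and 10.6 in other FBs and was higher in 6 libraries, while Tek itself had 23.5 CPM in members against 109 and was lower in all 8. Of the genes tied to vitamin K and mineralization, Ggcx makes the modification that Mgp and Gas6 carry, and Vkorc1 recycles the vitamin K used for it. These enzymes had 28.3 and 184 CPM in members and 27.0 and 194 in other FBs, and Bglap and Ibsp were at 0. Apoe had 698 CPM in members and 261 in other FBs and was higher in 7 libraries. In 1 library of the series, PBMCsec library 4, members had 6013 CPM of the haemoglobin gene Hbb-bs and 3906 CPM of Cst6, against at most 39.7 and 28.2 in the members of any other library. Such sums over 55 cells do not show how many of the cells held either gene. With the replicate block, edgeR called Hbb-bs in members (adjusted p = 0.00715) and in members against other FBs (adjusted p = 0.000166).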
